A study of Mus musculus with 18 samples.

Results

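Transcripts of skeletal muscle were followed across 18 RNA-seq libraries from mouse jaws with a tooth extraction wound. The 41 genes described here are the rows of the deposited count table whose gene name is on a list of skeletal muscle genes, out of 54532 genes in that table. The samples were taken at the site of a mandibular first molar, from a control arm and a periodontitis arm (inflammation of the tissues that hold the tooth), 0, 3 or 7 d after extraction, with 3 biological replicates for each arm and day. The labels name the molar as the tissue and the study's title names the extraction socket. Every sample shares the extraction, and arm and day are the differences the labels state, with the arm entered as genotype. The sources used here do not say how periodontitis was induced, which strain, sex and age the mice had, whether 1 library is 1 mouse, or how much of the surrounding jaw was taken. The p-values below therefore measure the spread between these samples.

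Skeletal muscle fibres contract when myosin heads pull on actin filaments inside repeated units called sarcomeres. Troponins on the actin filament switch the pull on when calcium is let out of the sarcoplasmic reticulum, and fibres are classed as fast or slow by the forms of myosin heavy chain, myosin light chain and troponin that they make. Myh7 marks slow fibres, while Myh2, Myh1 and Myh4 mark the fast IIa, IIx and IIb fibres. Myh3 and Myh8 are the embryonic and perinatal chains that fibres make during development and again while they regenerate from Pax7-positive satellite cells under the control of Myod1 and Myog. A tooth socket itself has no skeletal muscle, but the muscles of chewing attach to the mandible around it.

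The promoters of 4 members are shown because Acta1, the actin of the skeletal thin filament, was the most abundant member per length in the library with the most muscle transcripts, Ckm, the muscle creatine kinase, is a long-studied muscle promoter, and the neighbouring fast myosin genes Myh1 and Myh2 had different proportions in the libraries below. Each stretch runs from 250 bases before to 50 bases after the annotated start, 5′ to 3′ on the strand of the gene, from RefSeq on build GRCm38.p6. The stretches lie at chr8:123894726-123895025 (Acta1, minus strand), chr7:19410844-19411143 (Ckm, plus strand), chr11:67199852-67200151 (Myh1, plus strand) and chr11:67170777-67171076 (Myh2, plus strand). Capitals mark matches to CAGCTG, an E-box core of the kind that myogenic factors bind and which reads the same on both strands, to the MEF2 motif and to the CArG box of serum response factor, each searched on both strands.
Acta1: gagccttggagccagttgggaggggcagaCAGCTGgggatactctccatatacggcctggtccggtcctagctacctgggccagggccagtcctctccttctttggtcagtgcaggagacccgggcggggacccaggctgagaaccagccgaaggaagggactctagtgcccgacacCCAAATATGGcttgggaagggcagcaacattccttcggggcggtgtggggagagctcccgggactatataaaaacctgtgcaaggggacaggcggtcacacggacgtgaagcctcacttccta
Ckm: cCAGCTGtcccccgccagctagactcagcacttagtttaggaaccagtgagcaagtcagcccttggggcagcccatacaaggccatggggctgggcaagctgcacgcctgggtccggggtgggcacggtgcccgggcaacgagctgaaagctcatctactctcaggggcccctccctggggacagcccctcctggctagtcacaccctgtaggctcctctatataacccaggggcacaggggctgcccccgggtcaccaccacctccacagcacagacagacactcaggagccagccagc
Myh1: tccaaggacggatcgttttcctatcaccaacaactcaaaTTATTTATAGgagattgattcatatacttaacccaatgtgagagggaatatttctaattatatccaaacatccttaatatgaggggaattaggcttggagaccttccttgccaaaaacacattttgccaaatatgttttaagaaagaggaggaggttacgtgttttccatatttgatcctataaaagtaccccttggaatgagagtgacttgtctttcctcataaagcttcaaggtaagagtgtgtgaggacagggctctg
Myh2: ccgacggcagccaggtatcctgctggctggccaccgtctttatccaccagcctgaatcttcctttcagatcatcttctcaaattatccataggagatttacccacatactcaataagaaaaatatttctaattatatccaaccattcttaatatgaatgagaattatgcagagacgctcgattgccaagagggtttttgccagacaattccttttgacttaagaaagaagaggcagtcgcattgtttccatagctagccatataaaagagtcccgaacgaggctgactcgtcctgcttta
Acta1 had a CAGCTG and a CArG box, Ckm a CAGCTG, Myh1 a MEF2 motif and Myh2 none of these letters in its window. Of the 41 members, 33 had a promoter in the table. CAGCTG was in 14 of these 33 (42.4%), against 16.1% of all 27025 promoters of the same length. The MEF2 motif was in 8 of the 33 (24.2%) against 3.26% of all promoters, and the CArG box in 3 of the 33 (9.09%) against 1.57%. These are matches of letters, and no binding was measured.

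The libraries held 14139830 to 17763605 counts. In control libraries the 41 members together took 0.0088% to 0.0159% of all counts at every day. In periodontitis they took 0.0203%, 0.0708% and 0.284% in replicates 1 to 3 of 0 d (95% Clopper-Pearson interval of the last 0.282 to 0.287%), 0.0112%, 0.0101% and 0.0493% at 3 d, and 0.0276%, 0.0107% and 0.0132% at 7 d. Thus 4 libraries stood highest and are called muscle-rich below. These were periodontitis 0 d replicate 3, far above, then 0 d replicate 2, 3 d replicate 3 and 7 d replicate 1. Replicate 1 of 0 d came next at 0.0203% and was also above every control library. The other replicates at 3 d and 7 d lay within the control range. The interval covers counting error only. Fewer muscle fibres in a sample and less muscle RNA per fibre cannot be told apart in bulk tissue.

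**Figure D1:**
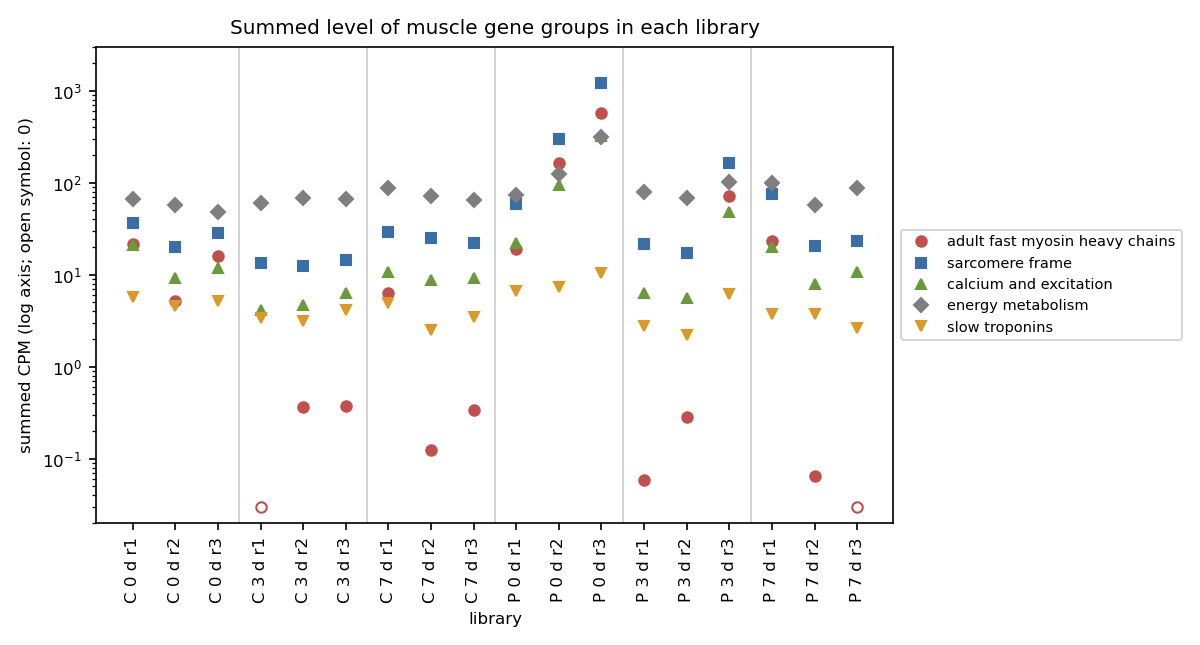
Summed CPM (log axis, open symbol for 0) of 5 groups of muscle genes in each of the 18 libraries, with C for control, P for periodontitis, day and replicate. The fast myosins span from 0 to 575 CPM, whereas energy metabolism genes stay between 47.7 and 125.5 CPM in every library except periodontitis 0 d replicate 3.

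Levels are given below as CPM, counts scaled to a common library size after TMM normalization, which corrects each total for the make-up of its library. Periodontitis 0 d replicate 3 had the highest level of 30 of the 34 members that passed the filter on low counts. The exceptions were the embryonic myosin Myh3, highest in 0 d replicate 2, the slow troponin I gene Tnni1 and the fast-fibre α-actinin gene Actn3, highest in 3 d replicate 3, and the slow and cardiac troponin C gene Tnnc1, highest in 0 d replicate 1. Per kilobase of gene, Acta1 reached 445 CPM in 0 d replicate 3, followed by the fast regulatory light chain Mylpf at 103, the fast troponin T Tnnt3 at 81.4, the titin cap Tcap at 55.2, the fast troponin I Tnni2 at 54.2 and the calcium pump Atp2a1 at 54.0. The long genes for titin (Ttn, 1.64 CPM per kilobase) and nebulin (Neb, 2.92 CPM per kilobase) were far lower on this scale.

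**Figure D2:**
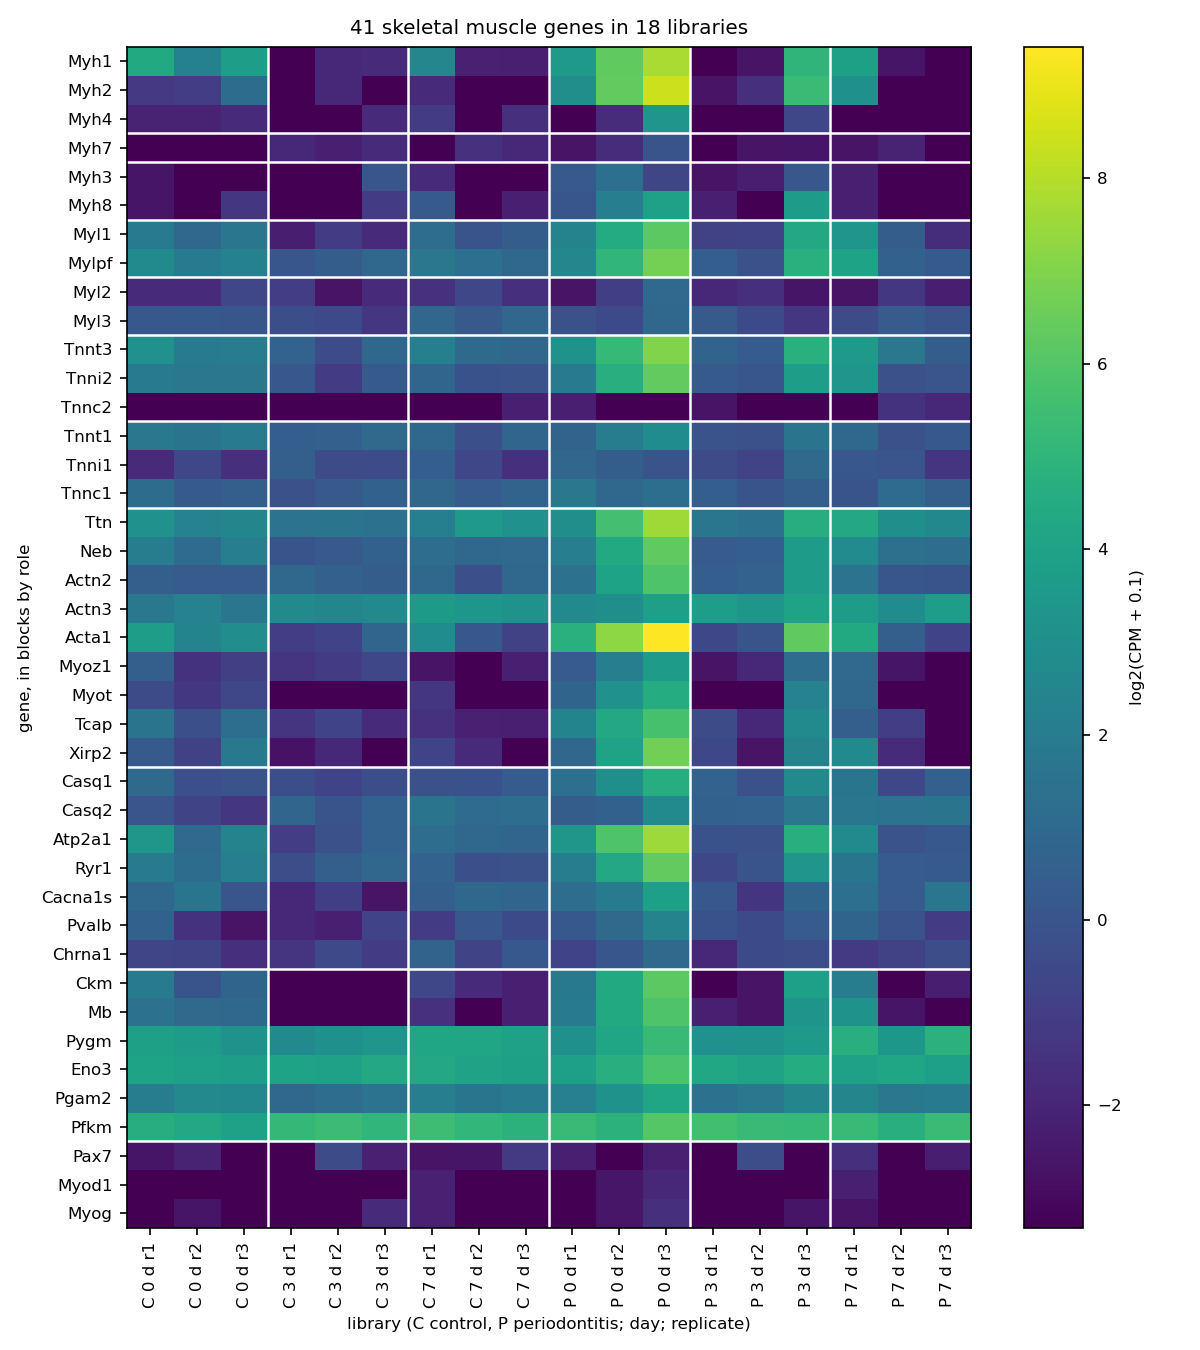
Level of each of the 41 members as log2(CPM + 0.1) in the 18 libraries, with genes in blocks by role and libraries in columns by arm, day and replicate. Periodontitis 0 d replicates 2 and 3, 3 d replicate 3 and 7 d replicate 1 are brighter across the fast and sarcomere blocks, while rows such as Pfkm, Eno3, Pygm and Actn3 are bright in every library. Summed over the sarcomere frame, every periodontitis 0 d library had at least 58.4 CPM and every control library at most 36.9 CPM.

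Of the muscle-rich libraries, periodontitis 0 d replicates 2 and 3 and 3 d replicate 3 were compared, and these did not hold the members in the same proportions. Over the 28 members with at least 30 counts in 0 d replicate 2, the level in 0 d replicate 3 was 3.19 times as high at the median, from 0.218 times for Myh3 to 6.50 times for Xirp2, which encodes an actin-binding protein of the muscle-tendon junction. The Myh3 ratio rested on 35 counts in 0 d replicate 2 and 9 in 0 d replicate 3. Between 3 d replicate 3 and 0 d replicate 2 the median ratio was 0.589, from 0.321 for Xirp2 to 2.92 for the perinatal myosin Myh8. Actn3 (2.04) and the muscle phosphofructokinase gene Pfkm (1.25) were the other members above 1 in that ratio. Both also had such levels in 3 d replicates 1 and 2, which were not muscle-rich, with Actn3 at 14.1 and 10.4 CPM and Pfkm at 47.5 and 39.7 CPM.

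Markers of other cell types differed between libraries too. The summed level of 8 genes of autonomic ganglion neurons was 1478, 36.2 and 826 CPM in periodontitis 0 d replicates 1 to 3, against 4.15 to 8.80 CPM in control 0 d, and it was also raised in control 3 d replicate 2 (659 CPM) and in periodontitis 3 d replicates 1 and 2 (438 and 641 CPM). All 8 were detected in those 6 libraries. In the muscle-rich 3 d replicate 3 and 7 d replicate 1 the sum was 9.07 and 4.68 CPM, and their part in the muscle results was not tested. Cardiac genes summed to 3.04 to 8.65 CPM in all 18 libraries, with the atrial peptide gene Nppa at 0 in 16 of them. Smooth muscle genes summed to 163 to 265 CPM in control 0 d and 263 to 348 CPM in periodontitis 0 d. Enamel and dentine genes were lower in periodontitis, with 15.1 to 631 CPM in control 0 d against 0.721 to 4.78 CPM in periodontitis 0 d.

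At 0 d, 9 members were called higher in periodontitis than in control, among them genes for the sarcomere frame, for calcium handling and the fast myosin Myh2. None of these calls held without periodontitis replicate 3, and none was made when only the control and periodontitis libraries of 0 d were fitted. Genes were tested with edgeR's quasi-likelihood test, adjusted by Benjamini-Hochberg over all 18697 genes that passed the filter and called under 0.05. Of the 41 members 34 were tested. The other 7 (Myh4, Myh7, Myl2, Tnnc2, Pax7, Myod1 and Myog) had too few counts, and members such as Myh3 and Myh8 passed the filter through the libraries where they were high. The test called 9, all of them higher, where 8.27% of all genes were called and 4.81% were called higher. The median log2 fold change of the tested members was 3.30, against -0.02 for all genes. The groups did not overlap for 16 members, all higher in periodontitis, and such a separation was found for 12.7% of all genes.

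Actn2, which encodes the Z-disc α-actinin that anchors actin filaments, lay at 1.32, 1.17 and 1.22 CPM in the 3 control libraries and at 2.58, 16.6 and 59.8 CPM in periodontitis. Every periodontitis library was above every control library, by a log2 fold change of 4.41 ± 1.01 (SE, n = 3 and 3, edgeR adjusted p = 0.0205). Ttn, the giant spring that spans a sarcomere from Z-disc to M-line, was at 8.47, 4.86 and 5.67 CPM in control and 7.87, 49.3 and 192 CPM in periodontitis. Its groups overlapped, since periodontitis replicate 1 lay inside the control range, with a log2 fold change of 3.71 ± 0.97 (edgeR adjusted p = 0.0329). Neb, the ruler of thin filament length, showed the same overlap, with 3.97, 2.07 and 4.33 CPM in control and 4.21, 21.4 and 77.7 CPM in periodontitis (log2 fold change 3.31 ± 0.94, edgeR adjusted p = 0.0428).

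Among calcium genes, the fast-fibre calsequestrin Casq1, which stores calcium in the reticulum, was at 1.99, 0.778 and 0.854 CPM in control and 2.40, 8.07 and 24.1 CPM in periodontitis. The groups just failed to touch, with a log2 fold change of 3.25 ± 0.85 (edgeR adjusted p = 0.0328). Ryr1, the channel through which that calcium is released, rose by 3.37 ± 1.0 (edgeR adjusted p = 0.0492) from 3.77, 2.20 and 4.27 CPM to 3.91, 20.2 and 82.0 CPM, again with replicate 1 inside the control range. The cardiac and slow-fibre calsequestrin Casq2 rose by 2.38 ± 0.59 (edgeR adjusted p = 0.0271) from 0.926, 0.518 and 0.305 CPM to 1.26, 1.46 and 6.43 CPM. Casq2 differed from Casq1 and Ryr1 in that replicate 2 of periodontitis was hardly above replicate 1.

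Of the fast myosins, Myh2 rose by 7.22 ± 1.97 on the log2 scale (edgeR adjusted p = 0.0382), from 0.331, 0.389 and 2.14 CPM in control to 7.69, 83.2 and 344 CPM in periodontitis, with no overlap. Myh1 lay at 21.4, 4.67 and 13.6 CPM in control and at 11.2, 79.9 and 221 CPM in periodontitis. Its groups overlapped and the test was not passed (log2 fold change 2.98 ± 1.66, edgeR adjusted p = 0.276). The difference between the Myh1 and Myh2 folds was not tested.

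Acta1 had 13.8, 5.32 and 7.45 CPM in control and 27.4, 154 and 683 CPM in periodontitis. No periodontitis library reached down to the control values, yet the spread within periodontitis was wide and the log2 fold change of 5.03 ± 1.63 missed the threshold (edgeR adjusted p = 0.0657). Ckm, which buffers ATP in the fibre, missed it too, at 3.98 ± 1.72 (edgeR adjusted p = 0.157), with 3.77, 0.907 and 1.65 CPM in control and 3.49, 21.6 and 74.9 CPM in periodontitis. Myh8 (5.72 ± 1.96, edgeR adjusted p = 0.0773) and Myh3 (5.54 ± 1.75, edgeR adjusted p = 0.0606) were near 0 in control, with at most 5 counts in a library, and had 16 to 268 and 9 to 35 counts in periodontitis. The nicotinic receptor subunit Chrna1 of the nerve-muscle synapse was at 0.244 to 0.529 CPM in control and 0.481 to 2.01 CPM in periodontitis (edgeR adjusted p = 0.162).

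The remaining 2 called members had smaller differences. Pfkm, the phosphofructokinase of muscle that other tissues also make, was at 24.1, 20.7 and 15.7 CPM in control and at 38.3, 29.1 and 67.0 CPM in periodontitis, a log2 fold change of 1.15 ± 0.27 (edgeR adjusted p = 0.0217). Actn3 was at 3.31, 4.99 and 3.11 CPM in control and at 6.49, 8.07 and 14.8 CPM in periodontitis (1.36 ± 0.32, edgeR adjusted p = 0.0220). Neither overlapped between arms. By role, the test called 4 of 9 sarcomere frame genes, 3 of 7 calcium and excitation genes, 1 of 2 tested adult fast myosins and 1 of 6 energy genes, and 0 of the 2 fast light chains, 2 tested fast troponins, 3 slow troponins, 1 tested slow light chain and 2 developmental myosins. At an unadjusted p under 0.05, 29 of the 34 were past the threshold, as were 26.7% of all genes. DESeq2 called 17 of the 33 members it gave an adjusted p, against 15.3% of all genes. With only the libraries of 0 d in the edgeR fit, 0 of the 32 members tested were called, against 0.387% of all genes. The cause of the difference between fits was not tested.

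These 9 calls rested on few libraries. Without periodontitis replicate 3 none of the 9 was called (3.2% of all genes were), and the log2 fold changes were smaller, for example 2.20 for Ttn (edgeR adjusted p = 0.143) and 2.98 for Actn2 (edgeR adjusted p = 0.0778). Without control replicate 3 the count was also 0 (1.82% of all genes), without control replicate 2 it was 1 (1.64%) and without control replicate 1 it was 5 (5.99%). Without periodontitis replicate 1 it was 8 (1.34%) and without periodontitis replicate 2 it was 11 (11%). Leaving out the 5 libraries with the ganglion gene Vip above 100 CPM was a choice made after seeing the data. It leaves 1 periodontitis library at 0 d, assumed to vary like the other groups. The log2 fold change was then 3.77 for Actn2 and 2.99 for Ttn.

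**Figure D3:**
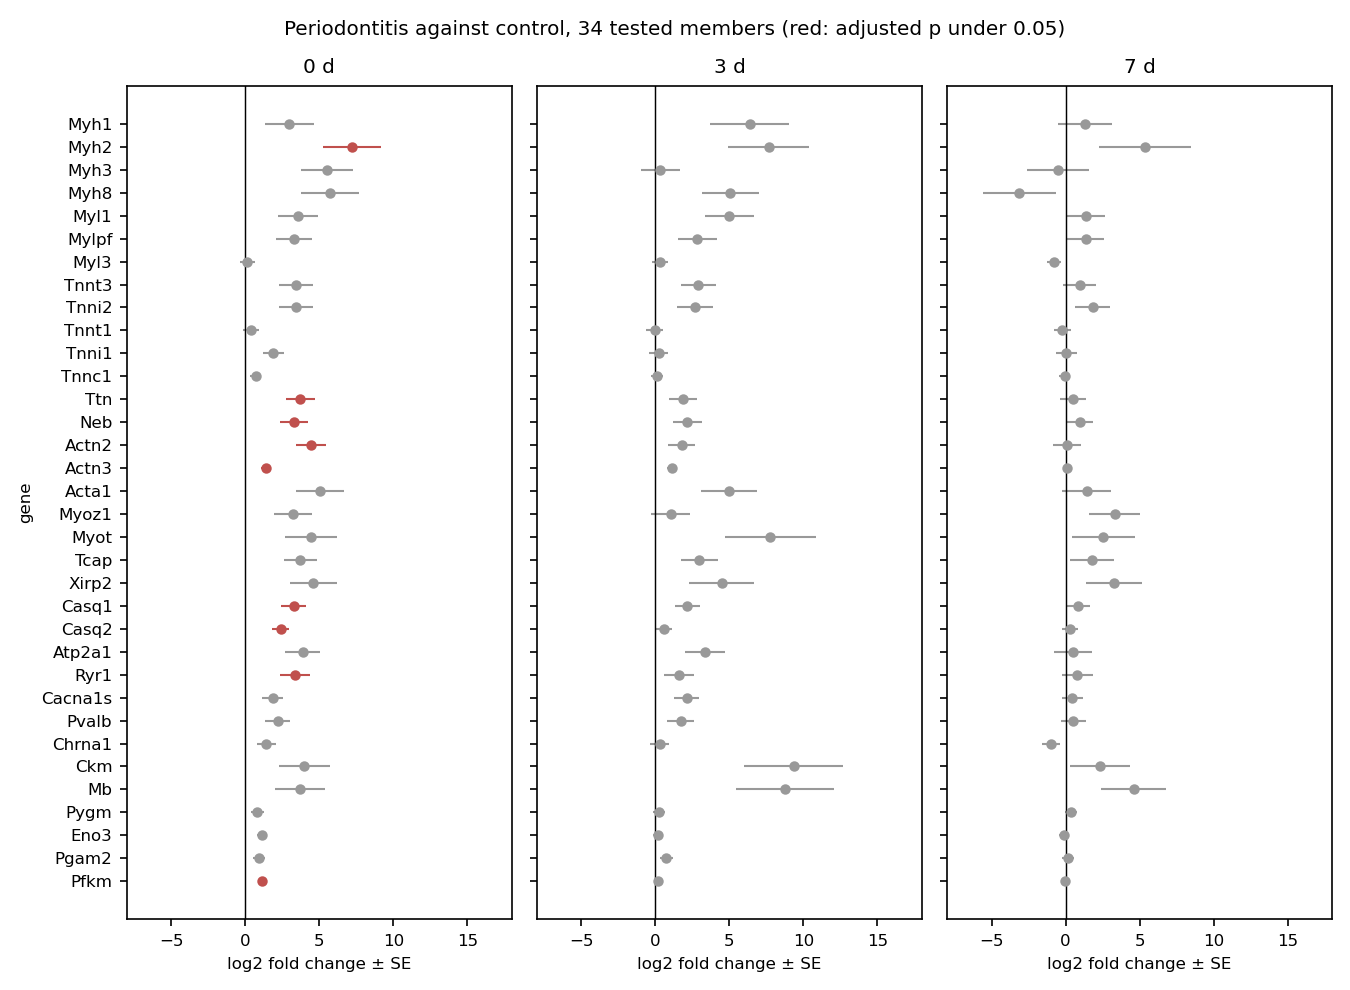
Log2 fold change ± SE of periodontitis against control for the 34 tested members at 0, 3 and 7 d, with called members in red. The 9 called members are all at 0 d and to the right of 0. Ckm, Mb and Myot had 0 counts in every control library of 3 d, so their fitted values on that day depend on the prior count and are no measure of size.

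The make-up of the myosin heavy chains differed between the libraries of 0 d. As a share of reads of Myh1 and Myh2 together, Myh2 took 1.52%, 7.69% and 13.6% in control replicates 1 to 3, from 328, 78 and 257 reads. It took 40.8%, 51.0% and 60.9% in periodontitis replicates 1 to 3, from 314, 2343 and 9577 reads. The 3 control values lay below the 3 periodontitis values. The highest control value had an exact 95% interval of 9.67 to 18.4% and the lowest periodontitis value one of 35.3 to 46.4%. These intervals cover counting error within 1 library and not the spread between libraries, so they are no test of the arms. Periodontitis replicate 1 is the plainest case, because its Myh1 and Myh2 reads together were close in number to those of control replicates 1 and 3 while the split between the genes was not.

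After 0 d few libraries had enough reads for this share. Periodontitis 3 d replicate 3 had 56.0% Myh2 (53.1 to 58.9%) of 1159 reads and 7 d replicate 1 had 36.0% (31.3 to 41%) of 397 reads. Control 7 d replicate 1, the control library of later days with the most reads of these genes, had 3.09% (0.642 to 8.77%) of 97 reads. Control 3 d replicate 2 had only 6 such reads, 3 of them from Myh2 (interval 11.8 to 88.2%), and the other libraries of 3 and 7 d had 5 reads or fewer. This ratio was chosen after its values were seen and is a description without a test. The transcripts of Myh1 and Myh2 share 7.21% and 7.59% of their stretches of 100 bases, and 18.7% and 19.7% of those of 50 bases, with each other. The read length is not stated, and some reads may have been given to the wrong gene. In the annotation 8.11% of the exon bases of Myh1 and 3.32% of those of Myh2 overlap genes on the opposite strand.

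**Figure D4:**
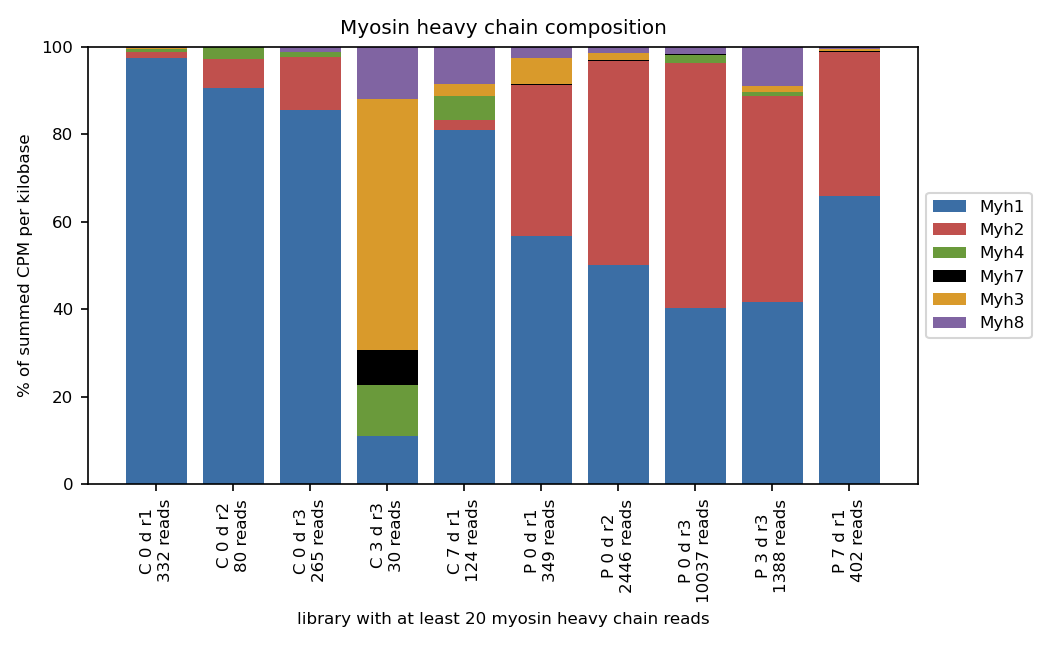
Share of each of 6 myosin heavy chains in their summed CPM per kilobase, for the 10 libraries with at least 20 reads of these genes, whose read numbers stand under the bars. Myh1 takes 85.7% to 97.5% in control 0 d and 40.3% to 56.7% in periodontitis 0 d, where Myh2 takes 34.7% to 56.0%.

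Slow and IIb myosin were scarce. Myh7 had 0 counts in the 3 control libraries of 0 d, which at a floor of 3 counts allows up to 0.199 CPM, and 1, 3 and 15 counts in periodontitis 0 d. Per kilobase it made up at most 0.225% of the 6 myosin heavy chains in any periodontitis library of 0 d. Myh4, the IIb chain, had 0 to 6 counts in 16 libraries, 9 in periodontitis 3 d replicate 3 and 168 in 0 d replicate 3, where it made up 1.91% per kilobase. Neither passed the filter on low counts. Myh8 made up 8.95% per kilobase in periodontitis 3 d replicate 3 (14.6% of counts not divided by length), against 1.46% to 2.63% per kilobase in periodontitis 0 d. Its share was similar in control 7 d replicate 1 (8.38% per kilobase, 124 reads of the 6 chains). In control 3 d replicate 3 it was 11.8% per kilobase, from 30 reads.

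The fast troponin and light chain genes Tnni2, Tnnt3, Myl1 and Mylpf each had their highest levels in the 4 muscle-rich libraries. Those libraries were picked on summed counts that include these genes, so this is no independent result. None of the 4 genes was called between arms at 0 d. The fast troponin I Tnni2 was at 3.84, 3.18 and 3.23 CPM in control 0 d and at 3.85, 24.9 and 81.1 CPM in periodontitis 0 d. Its slow partner Tnni1 was at 0.198, 0.583 and 0.244 CPM and at 1.74, 1.25 and 0.885 CPM in the same libraries, so that replicate 3, the highest for Tnni2, was the lowest of the 3 periodontitis libraries for Tnni1. Neither passed the test at 0 d (Tnni2 edgeR adjusted p = 0.0737, Tnni1 edgeR adjusted p = 0.102). Per kilobase, Tnni1 made up 15.9%, 2.05% and 0.452% of the pair in periodontitis 0 d replicates 1 to 3, 2.11% to 7.10% in control 0 d and 20.3% to 43.3% in control 3 d, so the arms overlapped at 0 d.

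The slow and cardiac light chain Myl3 stayed between 0.310 and 1.89 CPM in all 18 libraries while its fast partner Myl1 spanned 0.111 to 73.6 CPM. Tnnt1, the slow troponin T, was at 2.92 to 3.54 CPM in control 0 d and 1.56 to 7.20 CPM in periodontitis 0 d. The fast Tnnt3 was at 3.63 to 8.67 and 8.77 to 129 CPM in those groups. Tnnc1 ranged from 0.780 to 3.31 CPM over the series. Myl2, the slow and cardiac regulatory chain, had at most 33 counts and was not tested. The fast troponin C gene Tnnc2 had 0 counts in 13 libraries and at most 4 in the others, even where its partners Tnni2 and Tnnt3 had 1375 and 2183. In the annotation 74.0% of the exon bases of Tnnc2 overlap Ube2c on the opposite strand, and the strand setting of the counting is not given in the sources used here, so the level of Tnnc2 is uncertain.

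At 3 d no member was called between arms (0 of 34, against 0.134% of all genes), although 17 were at an unadjusted p under 0.05, as were 8.26% of all genes. DESeq2 called 4, Actn3 and Myl1 among them, against 1.8% of all genes. The median log2 fold change was 1.98 against 0.00 for all genes. The groups did not overlap for 5 members (Actn3, Myl1, Mb, Casq1 and the parvalbumin gene Pvalb), all higher in periodontitis (9.16% of all genes). Actn3 had the smallest p, with 6.79, 5.56 and 6.70 CPM in control and 14.1, 10.4 and 16.4 CPM in periodontitis, all above control (log2 fold change 1.10 ± 0.31, edgeR adjusted p = 0.199, DESeq2 adjusted p = 0.0404). Myl1 was at 0.111, 0.363 and 0.186 CPM in control and 0.465, 0.511 and 20.6 CPM in periodontitis (4.99 ± 1.65, edgeR adjusted p = 0.308). It came to 1.12 without replicate 3 of periodontitis.

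Myh2 was at 0, 0.181 and 0 CPM in control 3 d and at 0.0582, 0.227 and 40.3 CPM in periodontitis 3 d (edgeR adjusted p = 0.364). Acta1 was at 0.390, 0.484 and 1.68 CPM in control and at 0.582, 0.908 and 78.3 CPM in periodontitis (edgeR adjusted p = 0.429). In both, 1 periodontitis library stood apart and the other 2 lay at or near the control values. Ckm, the myoglobin gene Mb and the Z-disc gene Myot had 0 counts in all 3 control libraries of 3 d. Ckm had 0, 1 and 235 counts in periodontitis, Mb 2, 1 and 155 and Myot 0, 0 and 80.

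At 7 d none of the 34 was called and none was at an unadjusted p under 0.05 (6.35% of all genes were), and DESeq2 called 0 (0.611% of all genes). The share of all genes called between arms on that day was 0%. The oxygen-binding protein gene Mb had the smallest p, with 0.246, 0 and 0.114 CPM in control and 9.24, 0.0649 and 0 CPM in periodontitis (log2 fold change 4.60 ± 2.18, edgeR adjusted p = 0.798). The Z-disc gene Myoz1 (3.32 ± 1.73, edgeR adjusted p = 0.836) and Xirp2 (3.27 ± 1.88, edgeR adjusted p = 0.886) followed. All 3 had their high value in periodontitis replicate 1 alone, and without it their values turned negative (Mb -1.75, Myoz1 -0.82, Xirp2 -1.21). Myh1 was at 5.79, 0.126 and 0.114 CPM in control 7 d and at 14.9, 0.0649 and 0 CPM in periodontitis 7 d, so replicate 1 was the high library in both arms.

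In the control arm most fast-fibre transcripts were lower at 3 d than at 0 d without passing the test. Between 0 and 3 d, 1 member was called higher and 2 lower, whereas 34.7% of all genes were called (16.4% higher, 18.3% lower). The groups did not overlap for 21 members that were lower at 3 d (25.7% of all genes) and 3 that were higher (Pfkm, Actn3 and Tnni1, 23.3% of all genes). The median log2 fold change was -1.23 against 0.03 for all genes. Cacna1s, the voltage sensor that triggers calcium release, fell by 3.11 ± 0.84 (edgeR adjusted p = 0.00915) from 1.85, 3.05 and 0.915 CPM to 0.167, 0.423 and 0.0620 CPM. Pgam2, the muscle phosphoglycerate mutase, fell by 1.28 ± 0.41 (edgeR adjusted p = 0.0258) from 4.17, 6.35 and 6.10 CPM to 1.84, 2.24 and 2.79 CPM. Pfkm rose by 0.88 ± 0.27 (edgeR adjusted p = 0.0183) to 35.9, 42.6 and 32.9 CPM. None of these 3 overlapped between days, and the Cacna1s call held with each library left out in turn, while that of Pfkm was lost in 2 and that of Pgam2 in 4 of 6 such fits.

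Acta1, Myh1 and Ckm were among the members whose control values at 3 d all lay below those of 0 d, and none was called. Acta1 went from 5.32 to 13.8 CPM at 0 d to 0.390 to 1.68 CPM at 3 d (edgeR adjusted p = 0.194), and Myh1 from 4.67 to 21.4 CPM to 0 to 0.186 CPM (edgeR adjusted p = 0.0612). Ckm had 57, 14 and 27 counts in the control libraries of 0 d and 0 in all 3 of 3 d (edgeR adjusted p = 0.0921). When only the control libraries of 0 and 3 d were fitted, 17 of the 26 members tested were called, 16 of them lower, against 37% of all genes, and the cause of the difference between fits was not tested.

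At 7 d in the control arm, 3 members were called higher and 1 lower than at 0 d, against 41.3% of all genes (20% higher, 21.4% lower). The groups did not overlap for 10 members that were lower (25.4% of all genes) and 5 that were higher (Actn3, Casq2, Pfkm, Pygm and Myl3, 25% of all genes). Actn3 rose by 1.46 ± 0.32 (edgeR adjusted p = 0.00177) from 3.31, 4.99 and 3.11 CPM to 12.3, 10.2 and 8.84 CPM. Casq2 rose by 2.03 ± 0.59 (edgeR adjusted p = 0.0115) to 2.90, 2.07 and 2.22 CPM, and Pfkm by 0.83 ± 0.27 (edgeR adjusted p = 0.0210) to 43.4, 34.9 and 29.3 CPM. For these 3 every library of 7 d was above every library of 0 d. Tcap, which caps titin at the Z-disc, fell by 3.57 ± 1.37 (edgeR adjusted p = 0.0474) from 2.91, 0.778 and 2.32 CPM to 0.246, 0.126 and 0.114 CPM. The Actn3 call held in all 6 fits that left out 1 library, the Casq2 call in 5, the Pfkm call in 4 and the Tcap call in 1.

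In the periodontitis arm 0 members were called higher and 6 lower at 3 d than at 0 d, where 21.2% of all genes were called and 12.2% were lower. These were Cacna1s (-2.84 ± 0.74, edgeR adjusted p = 0.0122), Pgam2 (-1.47 ± 0.41, edgeR adjusted p = 0.0176), Ttn (-3.06 ± 0.93, edgeR adjusted p = 0.0285), Ryr1 (-3.20 ± 0.99, edgeR adjusted p = 0.0306), Tcap (-3.36 ± 1.09, edgeR adjusted p = 0.0383) and Neb (-2.76 ± 0.92, edgeR adjusted p = 0.0425). The groups did not overlap for 2 members, Cacna1s and the uncalled Tnnc1, both lower (21.1% of all genes). Of the 6 called members Cacna1s alone was separate between days, with 2.22, 3.90 and 14.6 CPM at 0 d and 0.989, 0.284 and 1.61 CPM at 3 d. Single libraries set this count. Without the muscle-rich 3 d replicate 3 it was 23 (14.5% of all genes were called). It was 0 without 0 d replicate 3 (15.4%), without 3 d replicate 1 (13.1%) or without 3 d replicate 2 (14.9%).

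By 7 d, 17 members were lower than at 0 d and 0 higher in periodontitis, where 39% of all genes were called and 20.7% were lower. The median log2 fold change was -3.14 against 0.01 for all genes, and the groups did not overlap for 6 members, all lower (23.2% of all genes). Tcap fell by 5.48 ± 1.24 (edgeR adjusted p = 0.00320), from 5.29, 20.6 and 52.3 CPM to 1.34, 0.389 and 0 CPM. Atp2a1, the fast-fibre pump that returns calcium to the reticulum, fell by 4.94 ± 1.29 (edgeR adjusted p = 0.00769), from 10.6, 59.0 and 188 CPM to 6.43, 0.844 and 1.05 CPM. Ryr1 fell by 4.33 ± 1.06 (edgeR adjusted p = 0.00515) to 2.98, 1.17 and 1.11 CPM. For these 3 genes every library of 7 d was below every library of 0 d. Actn2 fell by 4.07 ± 0.99 (edgeR adjusted p = 0.00507) to 2.81, 0.974 and 0.885 CPM, with an overlap because 7 d replicate 1 exceeded 0 d replicate 1. These 4 calls held in each of the 6 fits that left out 1 library, and no other call of this comparison did among the 15 members with the smallest p.

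The other calls at 7 d came from several roles and from neither kind of light chain. Acta1 fell by 5.23 ± 1.65 (edgeR adjusted p = 0.0208) to 21.1, 1.36 and 0.498 CPM, and Myh2 by 5.69 ± 1.77 (edgeR adjusted p = 0.0193) to 8.36, 0 and 0 CPM. The developmental myosins Myh8 and Myh3 are among the 17 but had passed the filter through libraries where they were high, those of periodontitis 0 d included, so their calls are not independent of that selection. Each had 2 counts in 7 d replicate 1 and 0 in the others. Casq1, Pgam2, Neb, Ttn, Tnnt3, Tnni2, Xirp2, the slow troponin Tnnt1 and the muscle enolase gene Eno3 were also lower, by 1.01 (Eno3) to 4.20 (Xirp2) on the log2 scale. Myh1 (-4.38 ± 1.79, edgeR adjusted p = 0.0637) and Ckm (-4.54 ± 1.77, edgeR adjusted p = 0.0563) missed the threshold. The count was 23 without 7 d replicate 1 (31.3% of all genes were called) and 22 without 0 d replicate 1 (30.9%). It was 5 without 0 d replicate 3 (28.6%), 6 without 7 d replicate 2 (29.9%) and 4 without 7 d replicate 3 (34.3%).

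**Figure D5:**
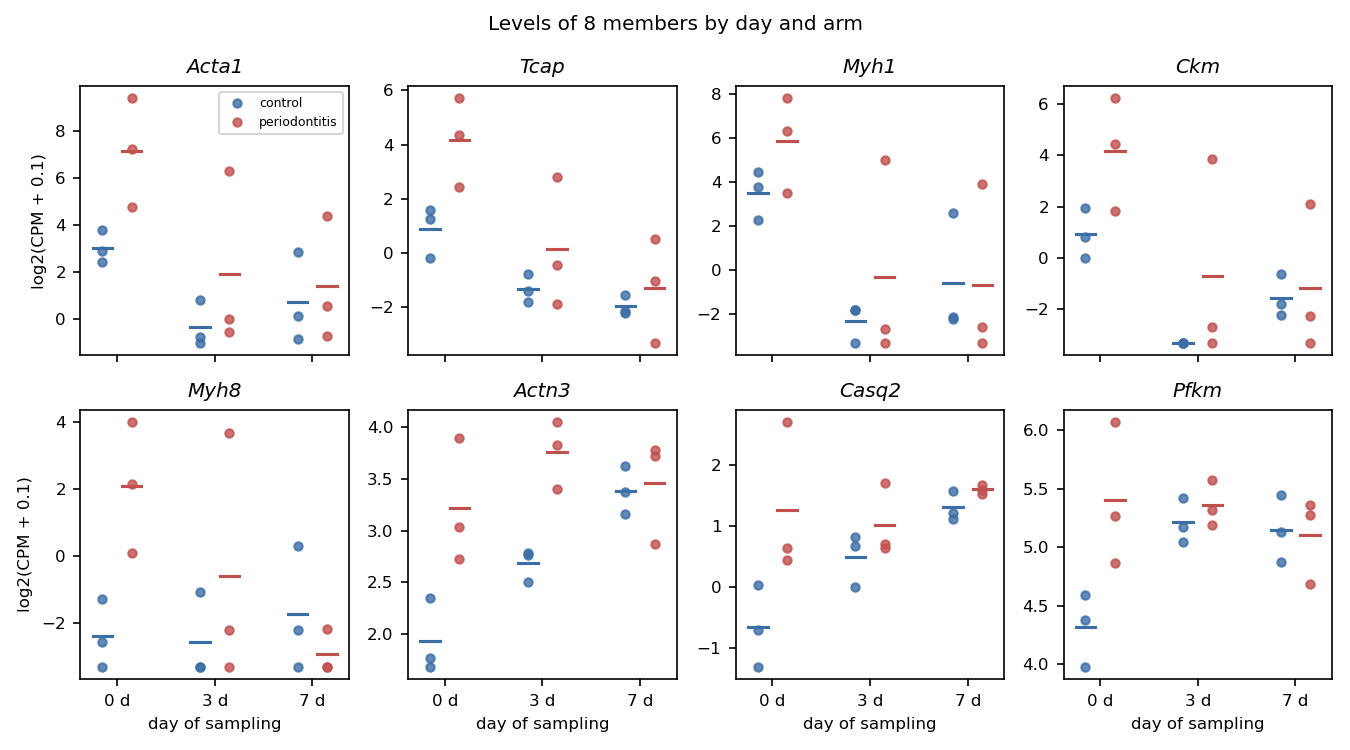
Level of 8 members as log2(CPM + 0.1) by day in control (blue) and periodontitis (red), with 1 point per library and a bar at the mean. Acta1, Tcap, Myh1, Ckm and Myh8 have 1 high periodontitis library or more on a day and a wide spread, while the points of Actn3, Casq2 and Pfkm at 7 d lie close together in both arms.

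Whether the change with time differed between arms was tested directly. None of the 34 members was called for the difference in the change from 0 to 3 d (0.016% of all genes) or from 0 to 7 d (0.0428% of all genes). At an unadjusted p under 0.05 there were 3 (Pfkm, Myh3 and Casq2) and 8 members (11.9% and 16% of all genes), and DESeq2 called 0 and 1 (1.27% and 4.22% of all genes). The one was Actn2, whose fall to 7 d was larger in periodontitis by 4.31 ± 1.36 on the log2 scale (edgeR adjusted p = 0.162, DESeq2 adjusted p = 0.0199). The 2 arms therefore cannot be said to differ in how these genes changed, although the counts of calls within each arm were unequal.

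Actn3, Casq2, Pfkm, Pygm and Eno3 had smaller differences between libraries than the myosins and Acta1. Actn3 differed by 1.83-fold between periodontitis 0 d replicates 3 and 2 and was higher in 3 d replicate 3 than in either. Pygm, the muscle glycogen phosphorylase, was at 8.29 to 37.9 CPM in periodontitis 0 d and at 6.41 to 29.2 CPM in the 15 other libraries. The 6 energy genes (Pfkm, Eno3, Pygm, Pgam2, Ckm and Mb) made up 67.0% to 73.5% of the summed CPM of the 41 members in control 3 d and 11.0% in periodontitis 0 d replicate 3. In the annotation 10.2% of the exon bases of Pfkm overlap Gm26513 on the same strand, and 31.9% of those of Mb, 21.9% of those of Atp2a1, 20% of those of Cacna1s and 15.5% of those of Ckm overlap other genes on the opposite strand, so part of these values could belong to those genes.

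The regulators Pax7, Myod1 and Myog were at the edge of detection. Pax7 had 11 counts in control 3 d replicate 2 and 13 in periodontitis 3 d replicate 2, both libraries with high ganglion genes, and at most 6 in each of the others. The other libraries with raised ganglion genes had few, with 2, 0 and 2 in periodontitis 0 d replicates 1 to 3 and 0 in 3 d replicate 1. Myod1, the myoblast determination factor, had at most 3 counts and Myog, which drives differentiation, at most 4. None of the 3 was tested, and the floor of 3 counts corresponds to 0.166 to 0.209 CPM. Myh3 had 18, 35 and 9 counts in periodontitis 0 d, 15 in control 3 d replicate 3 and 16 in periodontitis 3 d replicate 3, and at most 3 elsewhere. Among 11 other genes of myoblasts and immature fibres, 5 were tested. Of these Cdh15, a cadherin of satellite cells, stood at 17.7 to 41.6 CPM and Myl4, the embryonic and atrial light chain, at 2.40 to 9.07 CPM in all 18 libraries, both named here after their values were seen. Musk overlapped between arms at 0 d, with 1.12 to 2.20 CPM in control and 0.962 to 2.16 CPM in periodontitis. Des and Actc1 of the same list did not overlap. Des was at 6.22 to 7.48 CPM in control 0 d and 13.8, 48.4 and 178.5 CPM in periodontitis 0 d. Actc1 was at 0 to 0.194 CPM and at 0.180, 1.11 and 2.18 CPM. Of the untested genes, Myf5, Mymk, Mymx and Chrnd had at most 5 counts in any library and Chrng at most 7.

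A second list held 62 other muscle genes. At 0 d, 9 of its 51 tested genes were called higher in periodontitis (4.81% of all genes) and 0 lower. Fabp3, a fatty acid carrier of oxidative muscle and heart, rose by 1.96 ± 0.34 (edgeR adjusted p = 0.00578) from 3.77, 4.67 and 1.83 CPM to 13.5, 9.95 and 16.4 CPM. Its level was not confined to the muscle-rich libraries. Of these, periodontitis 3 d replicate 3 had the highest level, 17.7 CPM, and 7 d replicate 1 had 15.3 CPM. Periodontitis 3 d replicates 1 and 2 had 15.8 and 15.7 CPM and 7 d replicates 2 and 3 had 15.7 and 9.91 CPM. Control 3 d had 6.18 to 14.3 CPM and control 7 d 11.7 to 12.7 CPM. Ldb3, a Z-disc protein, rose by 3.72 ± 0.71 (edgeR adjusted p = 0.00879) and Des, the muscle intermediate filament, by 3.52 ± 0.82 (edgeR adjusted p = 0.0219). At 3 d and at 7 d 0 of the 51 were called between arms. With time, 8 were lower at 3 d in control (18.3% of all genes) and 7 at 7 d (21.4%), with 2 higher on each day. In periodontitis 17 were lower at 3 d (12.2% of all genes) and 30 at 7 d (20.7%), with 1 higher on each day.

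One gene of this second list was high at 0 d in both arms and low afterwards even where Acta1 was high. This was Klhl40, which stabilises thin filament proteins and had 125, 83 and 46 counts in control 0 d and 27, 54 and 367 in periodontitis 0 d. It had at most 5 counts in each of the 12 libraries of later days, periodontitis 3 d replicate 3 with its 1261 counts of Acta1 included. Its log2 fold change from 0 to 3 d was -6.35 ± 1.31 in control (edgeR adjusted p = 0.00149) and -6.40 ± 1.24 in periodontitis (edgeR adjusted p = 0.00193), with no overlap in either arm. Musk, the kinase that organises the nerve-muscle synapse, fell by 3.91 ± 0.89 in control over the same days (edgeR adjusted p = 0.00304), and so did Mylk2, the skeletal myosin light chain kinase, by 3.88 ± 0.88 (edgeR adjusted p = 0.00303). In periodontitis over those days Mylk2 fell by 3.62 ± 0.77 (edgeR adjusted p = 0.00341), with 0.869 CPM left in the Acta1-rich 3 d replicate 3, and Musk went from 0.962, 2.16 and 1.06 CPM to 0.756, 0.738 and 0.311 CPM without passing the test (edgeR adjusted p = 0.272). In the annotation 21.6% of the exon bases of Klhl40 and 19.6% of those of Fabp3 overlap genes on the opposite strand. Myf6, a regulatory factor of mature fibres named here after its values were seen, was too low to test and had 89 counts in periodontitis 0 d replicate 3, 14 in replicate 2 and at most 5 elsewhere.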

How the data were processed

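RNA was extracted with TRIzol and made into libraries with an NEBNext Ultra kit, per the labels' protocols. The unit analysed is the raw read count per gene in each of the 18 libraries, as deposited by the authors. The submitters' processing notes name HISAT2, StringTie, SAMtools and mm9. Gene coordinates in the table are those of GRCm38, and no source used here gives the counting program, its strand setting or tool versions.

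Members were found by gene name. They, the roles and the other lists were chosen with earlier results of these data known. Counts were fitted in R 4.3.3 with edgeR 4.0.16 (TMM scaling, filterByExpr on 6 groups, quasi-likelihood test, all 18 libraries in 1 model of group means, 9 comparisons, Benjamini-Hochberg adjustment over 18697 genes). CPM use TMM-scaled totals, and CPM per kilobase divide by the gene length in the deposited table. DESeq2 1.42.0 was an alternative, beside other scalings, filters, a replicate block, fits of only the groups compared and leaving out each library. Named genes are each called member, up to 15 by smallest p in a comparison, the 3 with the smallest p where fewer than 3 were called, and 15 members always named. From the other lists some of the called genes with the smallest p were named.

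In data simulated for the 0 d comparison with 18310 genes, 69% of 100 genes changed 2-fold and 96% of 100 changed 4-fold were called, with 5 false calls. The changed genes were drawn only from those with a mean above 5 CPM. These shares are therefore not the power for members of low level or wide spread. No 2 libraries of a group agreed within counting noise (chi-square per gene of at least 8.522). Whether replicate numbers pair the samples is not stated in the sources used here. Correlations of same-numbered deviations ran from -0.566 to 0.729, differing in sign, and cannot settle it. The main fit treated the samples as unpaired. Depth limits low genes: 3 counts are 0.166 to 0.209 CPM.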

Additional observations from a re-analysis of the deposited data

How the results depend on the processing

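Percentages in brackets are the share of all genes called in the same fits. The count of members called at 0 d between arms was 9 as reported (8.27%). It was 21 with no filter on low counts (4.87%), 17 with DESeq2 (15.3%) and 0 with only the groups compared (0.387%). Leaving out 1 library gave 0 to 11 (1.34% to 11%). Counts without the 5 libraries with Vip above 100 CPM are not given, since 1 periodontitis library is left at 0 d. At 3 d between arms DESeq2 called 4 (1.8%) in place of 0 (0.134%). In control from 0 to 3 d the count was 3 as reported (34.7%). It was 6 with no filter (15.9%), 7 with DESeq2 (37.6%) and 17 with only the groups compared (37%). With 1 library left out it was 1 to 3 (27.3% to 28.8%). From 0 to 7 d in control, 4 (41.3%) became 11 with only the groups compared (40%) and 1 to 4 with 1 library left out (33.5% to 39%). In periodontitis from 0 to 3 d, 6 (21.2%) became 11 with no filter (9.25%), 12 with DESeq2 (24.4%) and 0 with only the groups compared (24.2%). With 1 library left out it was 0 to 23 (13.1% to 17.8%). From 0 to 7 d in periodontitis, 17 (39%) became 9 with only the groups compared (28%). With 1 library left out that count was 4 to 23 (28.6% to 34.6%). For the difference between arms in the change from 0 to 7 d DESeq2 called 1 (4.22%). The cause was not tested, beyond the fewer samples in the fits that drop libraries.

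Whether replicate numbers pair the samples could not be settled. With a replicate block the count in periodontitis from 0 to 3 d was 10 (20.7% of all genes). Between arms at 0 d it was 6 in place of 9 (8.41%), and in periodontitis from 0 to 7 d it was 13 in place of 17 (37.9%). In every comparison but periodontitis from 0 to 3 d the count stayed within 1.5 times the reported one.

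Among single members, settings other than leaving out a library kept direction and side of the threshold in 375 of the values, lost the call in 43 and gained one in 3, and none reversed. With 1 library left out, 226 kept both, 100 lost the call and 4 reversed. Without periodontitis 7 d replicate 1, the 7 d values of Mb (range over libraries -1.75 to 5.58), Myoz1 (-0.82 to 4.13) and Xirp2 (-1.21 to 4.54) reversed, and without control 3 d replicate 3 so did the Myh3 difference between arms in the 0 to 3 d change (-7.31 to 0.15). Group means of the muscle read share, and at 0 d of the Myh2 and Myh7 shares, moved by less than the spread between replicates when shares were set over TMM-scaled sizes or counts were not divided by length. Single libraries moved beyond counting error, for example periodontitis 0 d replicate 2 from 0.0708% to 0.0818% of reads. Depth limits Pax7, Myod1, Myog, Myh7 and Tnnc2, whose absence cannot be shown.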
